A study of Mus musculus with 38 samples.

Results

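The 14-3-3 proteins form a family of small acidic adaptors that work as dimers. Each dimer docks onto phosphorylated serine or threonine motifs of client proteins and holds them in a conformation, in the cytoplasm or away from a partner. They are among the most abundant soluble proteins of the brain, where their clients include kinases, ion channels, histone deacetylases and the microtubule protein tau. The 6 genes followed here were Ywhab, Ywhae, Ywhag, Ywhah, Ywhaq and Ywhaz, which encode the β, ε, γ, η, θ and ζ isoforms, out of 22443 genes with a coding sequence (CDS) in the count files. They were chosen by the measured footprint counts of Ywhae, which was lower in pulldown over input after DHPG than at rest, so that contrast and its parts are described below without a test. The other members were taken with Ywhae as its family. Sfn, the σ isoform known from epithelia, reached at most 0.881 CPM (counts scaled to the library's CDS total) in any library and was not followed further.

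Ribosome footprints were measured by PL-Ribo-seq, which combines proximity labeling with ribosome profiling, in primary cortical neurons from embryonic CD-1 mice. A lentivirus delivered the biotin ligase TurboID, fused to the postsynaptic scaffold PSD95 (TurboID-PSD95, the dendritic bait) or without a localizing partner (Pan-TurboID). Per the labels, all cultures received biotin for 30 min and cycloheximide for 2 min, but the study's methods give a shorter labeling time after DHPG, so labeling time may differ between that group and the rest. Monosomes were isolated from 4 pooled dishes of 150 mm, 10% was kept as the input, and biotinylated ribosomes were pulled down from the rest, so each of the 19 cultures gave 1 input and 1 pulldown library. The 38 libraries fell into 14 groups. Resting and depolarized neurons (55 mM KCl for 1 h after 2 h of silencing with TTX and DL-AP5) carried either bait without siRNA, with 3 cultures for each bait and state. Neurons with TurboID-PSD95 were also stimulated for 10 min with DHPG (100 µM), which activates group I mGluRs, after the same silencing (3 cultures), or treated with 20 nM siRNA against the translation initiation factor eIF4G2 for 72 h and then left at rest or depolarized (2 cultures each). The bait of the DHPG and siRNA cultures is taken from their lentivirus label. The sample descriptions place the DHPG inputs and all siRNA libraries in the cytosol region, so the bait of the siRNA cultures is not certain. Neurons with a non-targeting siRNA were not analysed here. All resting groups are recorded with 0 h of silencing and all KCl and DHPG groups with 2 h. Stimulation and silencing therefore cannot be told apart in any comparison with rest. The labels do not name experiments. From their sample titles, the DHPG and siRNA cultures were taken as experiments other than the KCl experiment, which supplies their resting and untreated comparators. Treatment and experiment therefore cannot be told apart in those comparisons. Input is the whole culture's monosomes, so a change in the cells that make up a culture and a change per cell cannot be told apart.

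Libraries held 5906281 to 35643247 reads, of which 2047169 to 14636018 fell on the CDS of the longest transcript of each gene. Summed CPM of 8 neuronal markers was 6487 to 10678 in inputs and 5400 to 10022 in pulldowns, and none of them was at 0 in all libraries. Summed CPM of 6 astrocyte markers was 209 to 222 in DHPG inputs against 512 to 969 in resting TurboID-PSD95 inputs, and 225 to 243 against 599 to 1265 in the pulldowns. Oligodendrocyte markers were lower there too, at 15.5 to 20.7 CPM against 65.0 to 121 CPM in inputs and 6.54 to 7.44 CPM against 17.6 to 59.7 CPM in pulldowns, and neuronal markers higher, at 9772 to 9864 CPM against 8395 to 9212 CPM and 9623 to 10022 CPM against 7879 to 8621 CPM. The part of these markers in the DHPG values below was not tested. Over all libraries oligodendrocyte markers summed to at most 121 CPM and microglial markers to at most 13.7 CPM. Eif4g2, the siRNA target, was at 284 to 338 CPM in the 4 siRNA inputs and at 539 to 773 CPM in the 6 TurboID-PSD95 inputs of the KCl experiment, which are their comparators. It was at 445 to 457 CPM in the 3 DHPG inputs, which had no siRNA, so the siRNA inputs were the lowest, by less against the DHPG inputs. In TurboID-PSD95 depolarized cultures, the pulldown of replicate 2 stood apart from replicate 1 (chi-square per gene 47.5, against 1.48 to 30.9 for all other replicate pairs), and the members' results that rest on it are also given without replicate 2.

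The CDSs of the 6 genes had nearly the same length, 738 to 768 nt, but different gene structures and different numbers of near-identical copies in the genome. On the mouse build mm10, Ywhab (transcript ENSMUST00000018470) had its 741 nt CDS in 5 exonic segments at chr2:164011605-164016725 on the plus strand. Ywhae (ENSMUST00000067664) had 768 nt in 6 segments at chr11:75733028-75764672 on the plus strand. Ywhag (ENSMUST00000055808) had 744 nt in 2 segments at chr5:135910995-135934409 on the minus strand, and its closest relative Ywhah (ENSMUST00000019109) had 741 nt in 2 segments at chr5:33019068-33027195 on the plus strand. Ywhaq (ENSMUST00000135088) had 738 nt in 5 segments at chr12:21391356-21417091 on the minus strand, and Ywhaz (ENSMUST00000022894) had 738 nt in 5 segments at chr15:36772718-36790977 on the minus strand. The encoded proteins had 245 to 255 residues.

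Footprints are short, so the stretch in which the 6 CDSs were most alike shows how far a read can tell the members apart. It lay near the start of each CDS and is written 5′ to 3′ on the coding strand, with capitals at the columns where the members were not all the same. Of its 30 columns, 24 were shared by all members.
Ywhab, chr2:164011644-164011673, CDS positions 40 to 69: ctggcTgagcaggcTgagcgCtaTgaTgaC
Ywhae, chr11:75733064-75733091 and 75751881-75751882 across a splice junction, CDS positions 37 to 66: ctggcAgagcaggcCgagcgAtaCgaCgaA
Ywhag, chr5:135934344-135934373 minus strand, CDS positions 37 to 66: ctggcCgagcaggcGgagcgCtaCgaCgaT
Ywhah, chr5:33019104-33019133, CDS positions 37 to 66: ctggcGgagcaggcGgagcgCtaCgaCgaT
Ywhaq, chr12:21417029-21417058 minus strand, CDS positions 34 to 63: ctggcCgagcaggcCgagcgCtaCgaCgaC
Ywhaz, chr15:36790915-36790944 minus strand, CDS positions 34 to 63: ctggcCgagcaggcAgagcgAtaTgaTgaC

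The Ywhag and Ywhah windows were the closest pair, with 1 difference, and Ywhab, Ywhae and Ywhaz differed from every other member at 3 or more positions. Over the whole CDS, identity between members ran from 61.4% for Ywhae and Ywhah to 78.9% for Ywhag and Ywhah. The longest run shared by any pair was gagcaggcggagcgctacgacgatatggcc, 30 nt at CDS positions 43 to 72 of both Ywhag and Ywhah. Exact copies of CDS stretches lay mostly outside the family for Ywhah, Ywhaz and Ywhaq, while the few of Ywhag lay in Ywhah. Of all 28 nt words of the CDS, 0% had an exact copy elsewhere in the genome for Ywhab and Ywhae and 0.4% for Ywhag. The share was 65.5% for Ywhah, 96.9% for Ywhaz and 100.0% for Ywhaq, mostly in annotated processed pseudogenes (11 annotated places for Ywhaq). How reads with several matches were counted is not given in the sources used here, so the levels of Ywhah, Ywhaz and Ywhaq are uncertain, while those of Ywhab, Ywhae and Ywhag rest on nearly unique sequence.

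Footprint density spanned more than an order of magnitude within the family and kept nearly the same order in every group. The scale here is CPM per kb of CDS, which allows levels of different genes to be compared. In resting TurboID-PSD95 inputs, Ywhag had 2878 ± 205 CPM per kb (SD, n = 3), Ywhae 1461 ± 101, Ywhab 672 ± 10, Ywhaz 554 ± 35.8, Ywhah 462 ± 53.0 and Ywhaq 141 ± 5.63. Ywhag ranked first, Ywhae second and Ywhaq last in 14 of 14 groups, and their ranges did not overlap those of their neighbours. The span and the last rank rest on Ywhaq, whose counted level is uncertain because its CDS has exact copies elsewhere in the genome. Ywhab held rank 3 in 13 groups, Ywhaz rank 4 in 12 and Ywhah rank 5 in 13. The ranges of neighbours among these 3 overlapped in several groups, for example Ywhab and Ywhaz in depolarized inputs of either bait, and Ywhaz and Ywhah in resting Pan-TurboID inputs and pulldowns, so their order was not resolved there.

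**Figure D1:**
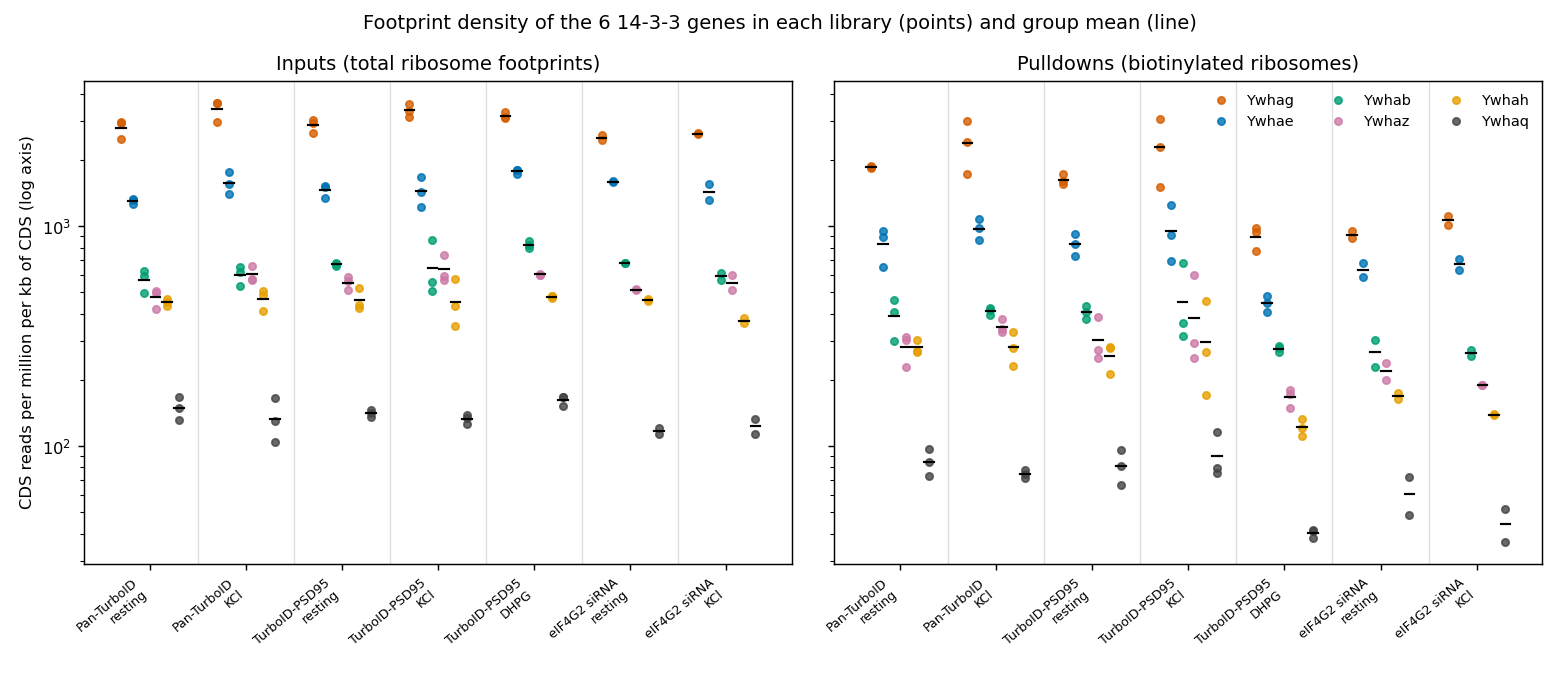
Footprint density of the 6 14-3-3 genes in inputs (left) and pulldowns (right), as CPM per kb of CDS on a log axis, for the 7 kinds of culture. Each point is a library and each line a group mean: Ywhag and Ywhae lie above the others and Ywhaq below them in all 14 groups, and each gene's group mean is lower in pulldowns than in the matching inputs.

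Together the 6 genes took 4128 to 5695 CPM in inputs and 1308 to 4625 CPM in pulldowns. Ywhag made up 47.5 ± 4.14% of the family's CDS counts (SD, n = 38 libraries), Ywhae 24.4 ± 2.57%, Ywhab 10.7 ± 1.63%, Ywhaz 8.50 ± 0.924%, Ywhah 6.88 ± 0.729% and Ywhaq 2.13 ± 0.362%. The γ and ε isoforms therefore accounted for most of the family's counted footprints. Shares by group are a description, with resting TurboID-PSD95 libraries, part of the picking contrast, as comparators. In resting siRNA cultures Ywhag took 42.6 ± 0.795% of the family in inputs and 40.1 ± 0.339% in pulldowns (n = 2), against 46.4 ± 0.877% and 46.4 ± 3.00% (n = 3). In DHPG cultures Ywhab took 11.6 ± 0.429% in inputs and 14.1 ± 0.888% in pulldowns (n = 3), against 10.8 ± 0.502% and 11.5 ± 0.280%.

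All 6 genes were lower in the pulldown than in the input of the same culture, in each of the 13 cultures outside the picking contrast and with both baits. On the log2 scale (CPM plus a pseudocount of 1), pulldown over input ran from -0.23 to -1.81 over members and these cultures, while the median of all genes lay between -0.09 and 0.00 in each. The 6 cultures of the picking contrast are given as a description and ran from -0.54 to -1.09 at rest and from -1.55 to -2.09 after DHPG. In resting Pan-TurboID cultures, Ywhae, whose product is the ε isoform, had 1026, 969 and 1015 CPM in the inputs and 689, 502 and 733 CPM in the pulldowns. Ywhaz, encoding the ζ isoform, had 367, 310.5 and 374 CPM in those inputs and 231, 169 and 223 CPM in the pulldowns, and Ywhaq, encoding θ, had 111, 96.9 and 124 CPM against 62.6, 54.1 and 71.7 CPM. Each pulldown lay below each input, with no overlap for any of these 3 genes.

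By edgeR's quasi-likelihood test, 3 of the 6 members were lower in resting Pan-TurboID pulldowns at an adjusted p under 0.05, where 9.54% of 13003 genes passed in either direction and 5.02% were lower (588 higher, 653 lower). These were Ywhae (log2 fold change -0.60 ± 0.19 SE, adjusted p = 0.0481), Ywhaz (-0.71 ± 0.23, adjusted p = 0.0467) and Ywhaq (-0.76 ± 0.21, adjusted p = 0.0292). Ywhab, Ywhag and Ywhah had -0.51, -0.54 and -0.63, with adjusted p of 0.136, 0.0675 and 0.0780. The median of the 6 was -0.61, against -0.04 for all genes tested. Between 16.8% of genes, for Ywhaq, and 26.9%, for Ywhab, had a lower fold change than the member. The counts of Ywhaz and Ywhaq are uncertain because of the copies of their CDSs elsewhere. In depolarized Pan-TurboID cultures the same 3 genes passed (background 8.77%, lower 3.62%), with Ywhae at -0.65, Ywhaz at -0.74 and Ywhaq at -0.79. There, between 14.5% of genes, for Ywhaq, and 27.3%, for Ywhag, had a lower fold change than the member. In depolarized TurboID-PSD95 cultures only Ywhaz passed (-0.70 ± 0.23, adjusted p = 0.0426, background 12.6%, lower 4.38%), with Ywhae next at -0.57 and an adjusted p of 0.0515. The share of genes with a lower fold change than the member ran from 17.5% for Ywhaz to 28.4% for Ywhab. Some marker sums also differed between input and pulldown without overlap, and their part was not tested. In resting Pan-TurboID cultures neuronal markers were at 9286 to 9613 CPM in pulldowns against 8639 to 9227 CPM in inputs and oligodendrocyte markers at 14.3 to 41.3 CPM against 73.3 to 111 CPM, and in depolarized TurboID-PSD95 cultures astrocyte markers were at 711 to 843 CPM against 547 to 596 CPM.

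Blocking on the culture, which pairs each pulldown with its own input, carried all 6 members past the threshold in each of these 3 comparisons, while the share of all genes called lower rose to 17.5%, 15.6% and 17.4%. Removing the trend of fold change with CDS length left 0 of 6 members in all 3 comparisons, with medians of -0.24, -0.32 and -0.18 and 3.11%, 2.82% and 5.48% of all genes called (0 members at an unadjusted p under 0.05, against 6, 6 and 5 without that step). Across the 7815 genes in view, pulldown over input correlated with CDS length (Spearman's rho 0.55, 0.57 and 0.58, over genes, which are not independent replicates), and the members' CDSs are shorter than the median of 1389 nt. Leaving out any 1 replicate number left 0 members past the adjusted threshold in the Pan-TurboID comparisons, with folds still below 0 (3 to 5 members at an unadjusted p under 0.05). In depolarized TurboID-PSD95 cultures, 3 members passed without replicate 2 and 0 without replicate 1 or 3. The share of all genes called without a replicate is not given here, so these counts have no background beside them.

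**Figure D2:**
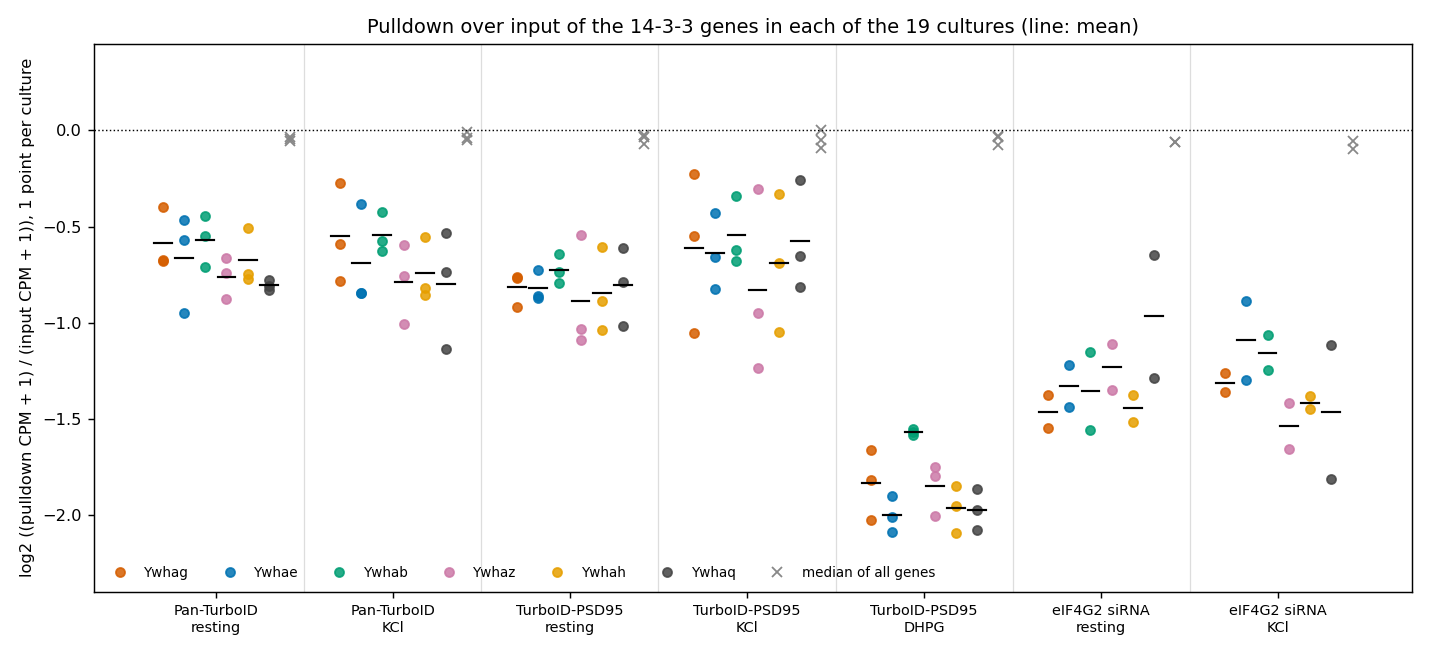
Log2 ratio of pulldown to input CPM (pseudocount of 1) for the 6 14-3-3 genes in each of the 19 cultures, by kind of culture. Coloured points are cultures, black lines means and grey crosses the median of all genes in each culture: every coloured point is below 0, from -0.23 to -1.81 outside the picking contrast, whose resting TurboID-PSD95 and DHPG cultures are shown as a description.

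The question of whether the dendritic bait differed from the unlocalized bait could be asked in depolarized cultures. Pulldown over input with TurboID-PSD95 minus that with Pan-TurboID ran from -0.04 to 0.27 over the members, with standard errors of 0.27 to 0.33 that each exceeded the gene's own difference. None of the members passed, and neither did any of the 13003 genes (0% called by edgeR's quasi-likelihood test, with 174 genes at an unadjusted p under 0.05). Without replicate 2 the differences ran from -0.30 for Ywhaz to 0.13 for Ywhaq, and none passed. At this precision a difference between baits was not detectable, which does not show that the baits were alike.

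KCl depolarization, used to ask how activity changes translation, moved no 14-3-3 gene past the threshold in Pan-TurboID inputs or pulldowns. Ywhag, the most abundant member, had 2223, 2196 and 1848 CPM in resting Pan-TurboID inputs and 2224, 2709 and 2704 CPM after KCl. In the pulldowns it had 1387, 1377 and 1402 CPM at rest and 1293, 1796 and 2238 CPM after KCl. The depolarized inputs lay above the resting ones, the lowest of them barely, and the pulldown ranges overlapped. Inputs of Ywhae and Ywhaz were also higher after KCl without overlap, while those of Ywhab, Ywhah and Ywhaq overlapped. With the CDS length trend removed, the members' median went from 0.23 to 0.12 in inputs and from 0.21 to 0.095 in pulldowns. The fold changes of the 6 members ran from -0.11 to 0.41 in inputs (background 4.05%) and from -0.13 to 0.40 in pulldowns (5.03%), with 0 and 1 members at an unadjusted p under 0.05. Pulldown over input did not change detectably with KCl either, at -0.06 to 0.06 (0 of 13003 genes called, with 124 at an unadjusted p under 0.05).

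In TurboID-PSD95 cultures the resting libraries belong to the contrast that picked the genes, so the KCl values are a description with no test of the members. Ywhag had 2264, 2189 and 1970.1 CPM in resting inputs and 2344, 2683 and 2502 CPM after KCl, and 1197, 1287 and 1161 CPM in resting pulldowns and 1129, 2290.0 and 1711 CPM after KCl. Over the members the fold changes ran from -0.07 to 0.24 in inputs and from 0.17 to 0.50 in pulldowns, and pulldown over input changed by 0.14 to 0.26. Without replicate 2, whose depolarized pulldown stood apart, the pulldown values were 0.32 for Ywhag and -0.20 for Ywhab to 0.01 for Ywhae among the others, so the positive direction of the other members was lost without that replicate. Pulldown over input then changed by -0.38 for Ywhaz to 0.03 for Ywhab. With all replicates kept and the CDS length trend removed, the members' median was 0.0036 in pulldowns, with 3 of 6 below 0. It was -0.14 in inputs and 0.15 for the change of pulldown over input. Summed neuronal markers were lower after KCl without overlap, at 6487 to 8017 CPM against 8395 to 9212 CPM in inputs and at 6293 to 7191 CPM against 7879 to 8621 CPM in pulldowns, and their part was not tested.

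In neurons with siRNA against eIF4G2, all 6 members were lower in the pulldown than in the input, with log2 fold changes from -0.88 to -1.45. At rest, Ywhag had 1836 and 1934 CPM in the inputs and 705 and 659.6 CPM in the pulldowns. Ywhae had 1222 and 1232 CPM against 523 and 454 CPM, and Ywhab, encoding the β isoform, 503 and 503 CPM against 226 and 169.9 CPM. Ywhah, encoding η, had 338 and 347 CPM against 129.6 and 121 CPM. No pulldown value reached any input value of the same gene.

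At rest, the edgeR fold changes were -1.35 ± 0.08 for Ywhag, -1.33 ± 0.11 for Ywhah, -1.22 ± 0.11 for Ywhab, -1.21 ± 0.09 for Ywhae, -1.13 ± 0.11 for Ywhaz and -0.88 ± 0.20 for Ywhaq. The adjusted p was between 4.27e-13 for Ywhag and 0.000741 for Ywhaq. After KCl they were -1.45 ± 0.11 for Ywhaz, -1.39 ± 0.22 for Ywhaq, -1.32 ± 0.12 for Ywhah, -1.21 ± 0.08 for Ywhag, -1.06 ± 0.11 for Ywhab and -0.996 ± 0.09 for Ywhae. The background was high: 45.5% of 12223 genes passed at rest and 48.8% after KCl, of which 23.4% and 24.8% of genes were lower. All 6 members passed with the culture as a block (22.7% and 24.3% of genes lower). Without any 1 library the members' fold changes ran from -1.64 to -0.60 over both states. With the length trend removed, 5 members still passed at rest, with Ywhaq at -0.38 (adjusted p = 0.141), and all 6 after KCl, at medians of -0.74 and -0.67 (16.9% and 17.6% of genes lower). Summed neuronal markers were lower in these pulldowns as well, at 7237 to 7257 CPM against 8850 to 8951 CPM in inputs at rest and at 5400 to 5543 CPM against 6906 to 7079 CPM after KCl, as were oligodendrocyte markers, while microglial markers were lower at rest and higher after KCl. Their part was not tested.

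Within the siRNA cultures, KCl moved 1 member past the threshold in inputs and 1 in pulldowns. In inputs, Ywhah fell by 0.30 on the log2 scale (adjusted p = 0.0418), from 338 and 347 CPM to 268 and 284 CPM, and no other member passed (background 19.3% of 12223 genes, lower 10.3%). The call was lost with RLE size factors, with DESeq2 and without any 1 library. In pulldowns, Ywhag rose by 0.22 (adjusted p = 0.0452), from 705 and 659.6 CPM to 825 and 757 CPM, and no other member passed (background 22.2%, higher 10.2%). Neither pair of groups overlapped. Over the members, fold changes ran from -0.30 to 0.12 in inputs, with 3 of 6 below 0. In pulldowns they ran from -0.43 for Ywhaq to 0.22 for Ywhag, with 4 of 6 below 0. The Ywhag call was lost without the resting pulldown of replicate 2 or the depolarized pulldown of replicate 1, and also with no filter on low counts, with the length trend removed, with the likelihood ratio test and with only the 3′ part of the CDS counted. Marker sums moved in the same comparisons without overlap. In inputs, neuronal markers went from 8850 to 8951 CPM at rest to 6906 to 7079 CPM after KCl, astrocyte markers from 502 to 517 CPM to 620 to 643 CPM and oligodendrocyte markers from 44.4 to 45.0 CPM to 36.0 to 37.1 CPM. In pulldowns, neuronal markers went from 7237 to 7257 CPM to 5400 to 5543 CPM, oligodendrocyte markers from 26.9 to 36.7 CPM to 16.8 to 16.9 CPM and microglial markers from 5.30 to 5.98 CPM to 12.2 to 13.7 CPM. Their part in the calls was not tested.

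Compared with TurboID-PSD95 cultures without siRNA, inputs of the siRNA cultures showed no member past the threshold after KCl (-0.32 to 0.02, background 5.30% of 13180 genes), and none at an unadjusted p under 0.05. At rest the comparators are libraries of the contrast that chose the genes, so the resting values are a description with no test of the members. The members' resting inputs ran from -0.24 to 0.15 (median of all genes -0.02) and their resting pulldowns from -0.33 to -0.78 (median of all genes -0.06). Ywhag was lowest, with the siRNA pulldowns at 705 and 659.6 CPM against 1197, 1287 and 1161 CPM. Summed markers moved there too without overlap, with neuronal markers at 7237 to 7257 CPM in the siRNA pulldowns against 7879 to 8621 CPM, astrocyte markers at 379 to 506 CPM against 599 to 1265 CPM and microglial markers at 5.30 to 5.98 CPM against 1.04 to 3.91 CPM, and their part was not tested.

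After KCl, 5 of 6 members were lower in the siRNA pulldowns, where 18.9% of 13180 genes passed and 10.9% were lower. Ywhag was at 825 and 757 CPM against 1129, 2290.0 and 1711 CPM without siRNA, a log2 fold change of -1.03 ± 0.20 (adjusted p = 0.00139). Ywhah was at 102 and 103 CPM against 126, 339 and 198 CPM (-1.03 ± 0.27, adjusted p = 0.0117), Ywhaq at -0.97 ± 0.24, Ywhaz at -0.93 ± 0.26 and Ywhab at -0.70 ± 0.25 (adjusted p = 0.0494). Ywhae, at 486 and 546 CPM against 533, 961 and 699 CPM, overlapped and did not pass (-0.43 ± 0.20, adjusted p = 0.133). Without the pulldown of replicate 2 that stood apart, 2 members passed, Ywhag at -0.78 and Ywhaq at -0.76, while Ywhab was at -0.30. Without any 1 pulldown of this comparison, Ywhag ran from -1.24 to -0.78 and Ywhah from -1.28 to -0.60. Ywhaq ran from -1.23 to -0.75, Ywhaz from -1.14 to -0.47 and Ywhab from -0.88 to -0.30. With only the 3′ part of the CDS counted, 2 passed, Ywhag at -1.29 and Ywhah at -1.34. The share of all genes called is not given here for these settings, so their counts have no background beside them. Fold changes in this comparison correlated with CDS length over genes (Spearman's rho 0.43). With the CDS length trend removed, 4 of 6 members passed, where 937 of 13180 genes were higher and 1205 lower. The members then ran from -0.70 to -0.11, at a median of -0.61 against -0.95 without that step. Cell type markers moved in the same comparison without overlap. Summed neuronal markers were at 5400 to 5543 CPM in the siRNA pulldowns against 6293 to 7191 CPM, astrocyte markers at 487 to 659 CPM against 711 to 843 CPM, and microglial markers at 12.2 to 13.7 CPM against 0 to 2.73 CPM. Their part in the result was not tested.

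**Figure D3:**
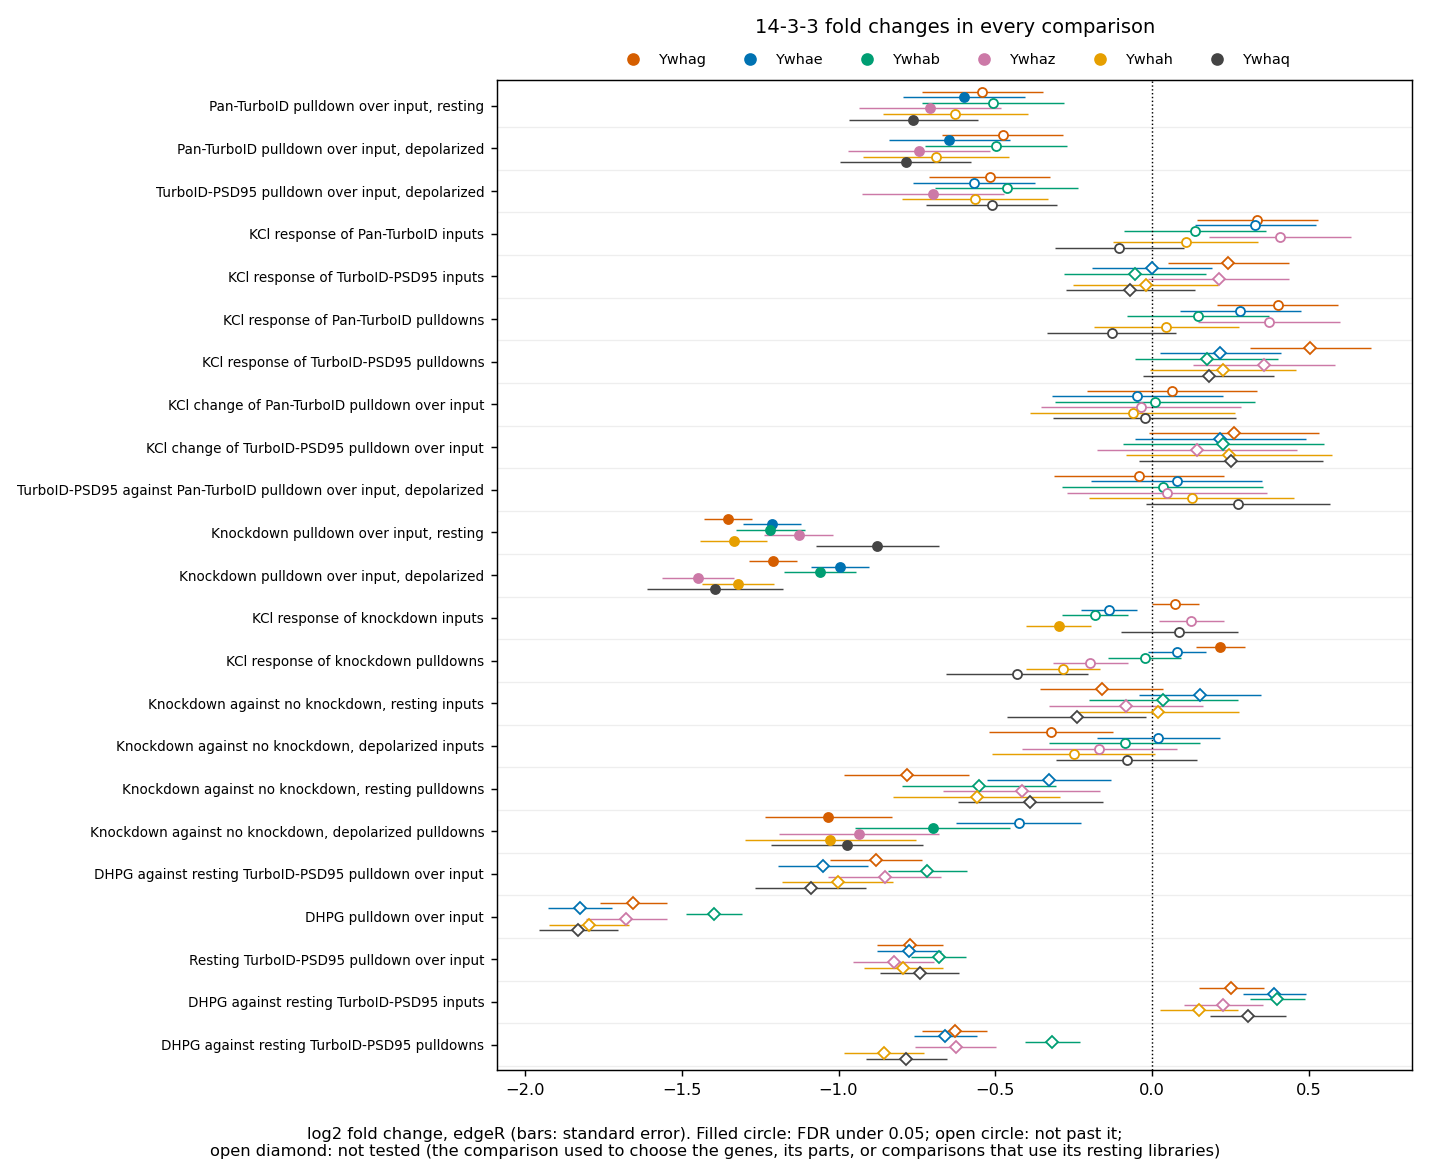
Log2 fold change of each 14-3-3 gene in each comparison, with its standard error from edgeR. Filled circles passed an adjusted p of 0.05, open circles did not and open diamonds mark the DHPG contrast that picked the genes, its parts and the comparisons that use its resting libraries, which were not tested: all 6 genes are left of 0 in every pulldown over input, and the KCl responses of Pan-TurboID cultures hold no filled circle.

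The contrast by which the genes were picked is given as a description. After DHPG, Ywhae had 1331, 1388 and 1392 CPM in the inputs and 312, 371 and 345 CPM in the pulldowns, against 1177, 1156 and 1033 CPM and 710.3, 635 and 564 CPM at rest. The DHPG inputs thus lay above the resting inputs and the DHPG pulldowns below the resting pulldowns. Pulldown over input was -1.82 after DHPG and -0.77 at rest, a difference of -1.05. The change combined 0.39 higher inputs with 0.66 lower pulldowns on the log2 scale. These parts depended on the setting, with the inputs 0.24 higher when only the 3′ part of the CDS was counted and the pulldowns at -0.39 with the CDS length trend removed.

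The other members, which the rule did not rank, moved with Ywhae in this contrast: -1.09 for Ywhaq, -1.002 for Ywhah, -0.88 for Ywhag, -0.85 for Ywhaz and -0.72 for Ywhab. In it 6.81% of 12787 genes passed (333 higher, 538 lower), and between 2.83% of genes, for Ywhaq, and 10.4%, for Ywhab, had a lower fold change than the member. Ywhag had 2351, 2465 and 2310.1 CPM in DHPG inputs and 577, 698 and 728 CPM in DHPG pulldowns. Ywhab had 589.9, 611 and 635 CPM against 198, 207 and 211 CPM, the smallest drop of the family. Input fold changes, DHPG over rest, lay between 0.15 and 0.40, and pulldown fold changes between -0.32 for Ywhab and -0.85 for Ywhah. The median of the 6 was -0.94, or -0.66 with the CDS length trend removed, and without any 1 replicate number it stayed between -0.84 and -1.04.

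For 5 of the 6 members the deficit in the pulldown was larger in the 5′ than in the 3′ part of the CDS, as it was for 74.8% of 7811 genes by the same test, so the members' count is near the background. Counts were summed over the exonic CDS segments before and after the segment boundary nearest the middle of each CDS, giving a 5′ and a 3′ part, and pulldown over input was taken in each part after scaling to CDS totals. In Ywhab the boundary lay after 424 of 741 nt and in Ywhae after 371 of 768 nt, but in Ywhag and Ywhah, with 2 segments each, only after 87 nt. In resting Pan-TurboID cultures, Ywhab had log2 ratios of -1.04, -1.05 and -1.13 in the 5′ part and -0.28, -0.49 and -0.06 in the 3′ part. In resting siRNA cultures it had -1.57 and -1.77 against -0.86 and -1.39. Ywhae had -0.94, -1.25 and -0.88 against -0.34, -0.73 and -0.23 in resting Pan-TurboID cultures. The 3′ part was thus closer to its input than the 5′ part in each of these cultures.

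Over the 13 cultures outside the picking contrast, the 3′ part exceeded the 5′ part by 0.82 ± 0.36 (SD) for Ywhab, 0.71 ± 0.44 for Ywhaz and 0.67 ± 0.40 for Ywhae, each in 13 of 13 cultures (exact two-sided sign-flip permutation test, adjusted p = 0.000645 over 7811 genes, from the smallest p that 13 cultures can give, 0.000244). The difference was 0.52 ± 0.31 for Ywhag in 12 of 13 cultures (exact permutation, adjusted p = 0.00106) and 0.44 ± 0.44 for Ywhah in 11 of 13 (exact permutation, adjusted p = 0.00558). For Ywhaq it was 0.20 ± 0.76, above 0 in 8 of 13 cultures (exact permutation, adjusted p = 0.399). The median gene had a mean difference of 0.95, higher than any member, and 80.6% to 90.2% of genes lay above 0 in each culture. The methods state that resting and activated samples of a replicate were handled together, so cultures of 1 number may not be independent. Averaged to 5 replicate sets, the difference was above 0 in 5 of 5 sets for Ywhab, Ywhae, Ywhag and Ywhaz, in 4 for Ywhah and in 3 for Ywhaq, and 5 sets cannot go below an exact p of 0.0625, so no call can be made at that level. In the KCl experiment alone the members' means were 0.28 to 0.84 (n = 9), and in the siRNA cultures 0.02 to 0.76 (n = 4).

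**Figure D4:**
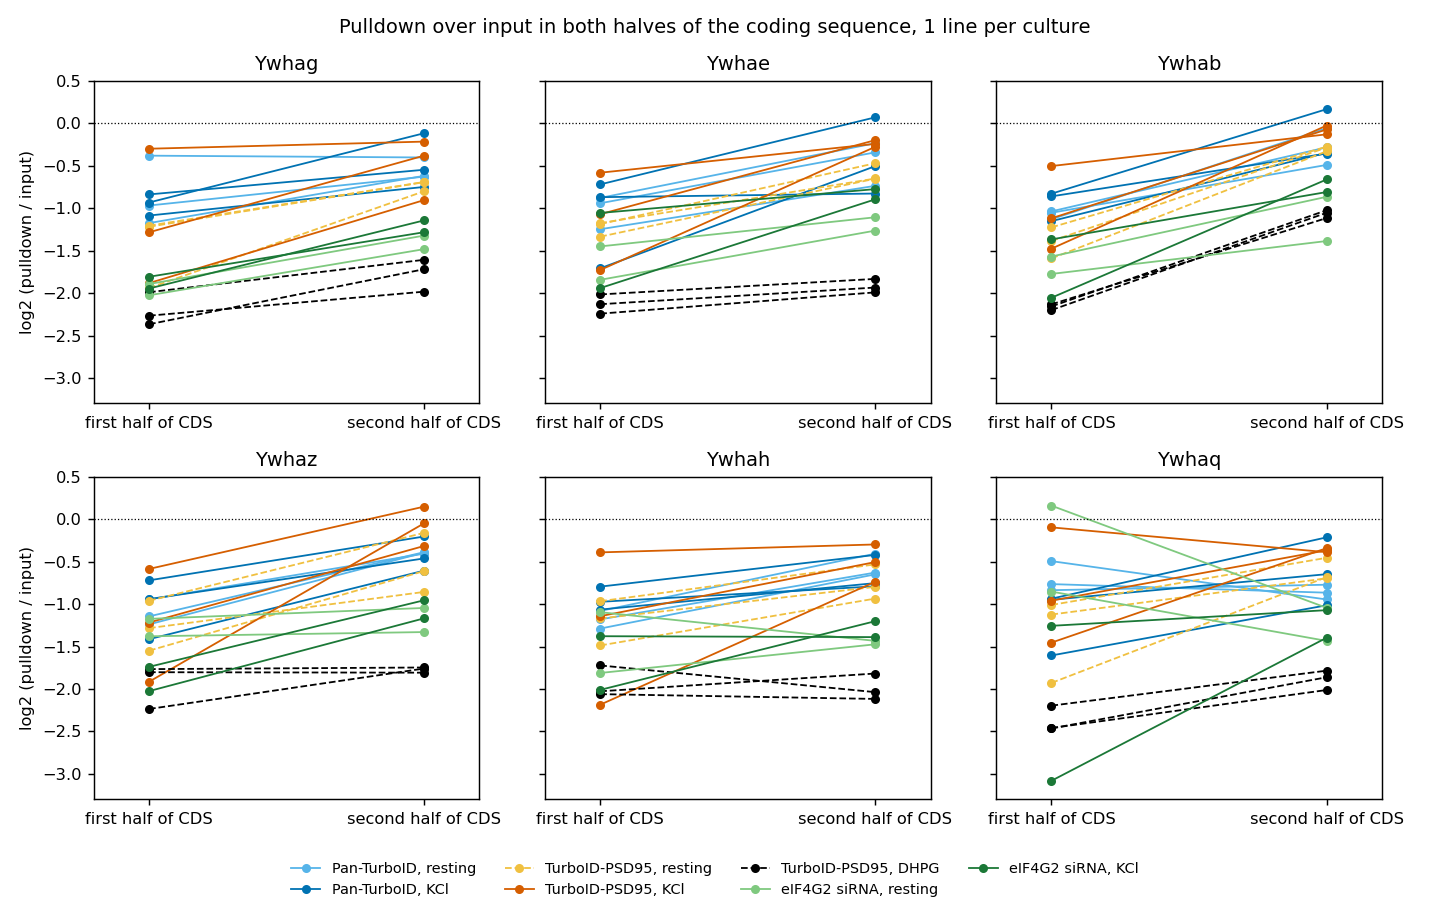
Log2 pulldown over input in the 5′ (first) and 3′ (second) part of each CDS, split at the exon boundary nearest its middle, for the 6 14-3-3 genes. Each line is a culture, coloured by kind, with dashed lines for the cultures of the picking contrast: lines rise in 13 of 13 other cultures for Ywhab, Ywhae and Ywhaz, and in 8 of 13 for Ywhaq.

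At the far end of the CDS the sign could turn. The last 57 nt of Ywhab had a mean log2 pulldown over input of 1.28 in resting and 1.27 in depolarized Pan-TurboID cultures, 1.53 in depolarized TurboID-PSD95 cultures and 0.84 in depolarized siRNA cultures, but -0.53 in resting siRNA cultures. The last 53 nt of Ywhae lay at -0.81, -0.37, 0.02, 0.49 and -0.25 in the same order. The last 60 nt of Ywhaz lay at 0.42, 1.43, 0.61, -1.05 and -1.74 in that order, with smallest pulldown counts of 3 and 6 in the siRNA groups. These segments are short, and none of them kept a common sign over these groups. The longer last segments of Ywhag and Ywhah, 657 and 654 nt, stayed below 0 in all of them.

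Part of each member's footprints was counted in its 5′ UTR. Reads were placed by their 5′ ends with no offset, so a ribosome on the start codon is counted there too. As a share of 5′ UTR and CDS counts together, the 5′ UTR took 46.5 ± 7.73% for Ywhaz (SD, n = 38 libraries), 36.7 ± 9.52% for Ywhah, 34.1 ± 9.90% for Ywhab, 30.2 ± 9.26% for Ywhae, 29.7 ± 9.22% for Ywhaq and 19.7 ± 5.05% for Ywhag. Over all genes the share was 15.7% to 27.98% in inputs and 4.85% to 19.1% in pulldowns. Read density in the 5′ UTR of Ywhae, 159 nt long, was 2.31 times that of its CDS. The ratio was 1.95 for Ywhaq, 1.89 for Ywhah, 1.15 for Ywhaz and 1.01 for Ywhab and Ywhag. These ratios and the members' shares pool inputs and pulldowns. By group, the Ywhae ratio ran from 1.10 in resting TurboID-PSD95 pulldowns to 3.59 in depolarized TurboID-PSD95 inputs. The Ywhab ratio ran from 0.54 to 1.71 and the Ywhag ratio from 0.58 to 1.47.

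The 5′ UTR share was lower in the pulldown for 5 of the 6 members, and for 74.1% of 10624 genes by the same test, so the members' count is near the background. The median gene had a mean difference of -9.62 percentage points, and 95.4% of genes lay below 0. In resting Pan-TurboID cultures the share for Ywhae was 34.6%, 44.4% and 34.2% in inputs and 19.8%, 33.4% and 18.4% in pulldowns. In depolarized siRNA cultures it was 38.9% and 45.6% in inputs and 24.9% and 22.5% in pulldowns. Over the 13 cultures the pulldown minus input difference for Ywhae was -13.6 ± 5.38 percentage points (SD), below 0 in all of them (exact permutation, adjusted p = 0.000693). It was -12.1 points for Ywhah, -10.6 for Ywhab, -8.68 for Ywhag and -6.04 for Ywhaz, each above 0 in 1 of 13 cultures (exact permutation, adjusted p from 0.00113 to 0.00279). Ywhaq, at -2.31 ± 6.99 points, did not pass (exact permutation, adjusted p = 0.297). Averaged to the 5 replicate sets, the difference was below 0 in 5 of 5 sets for the same 5 members and in 3 for Ywhaq, with the same limit on p. Pooling the counts of all genes gave a mean difference of -12.5 points. In the DHPG cultures the Ywhae share was 26.5%, 26.1% and 24.2% in inputs and 25.1%, 25.04% and 33.2% in pulldowns. Pooling all genes gave differences of -12.4, -10.8 and -9.44 points in these cultures. The share holds the CDS counts by which Ywhae was picked, so these values are a description.

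**Figure D5:**
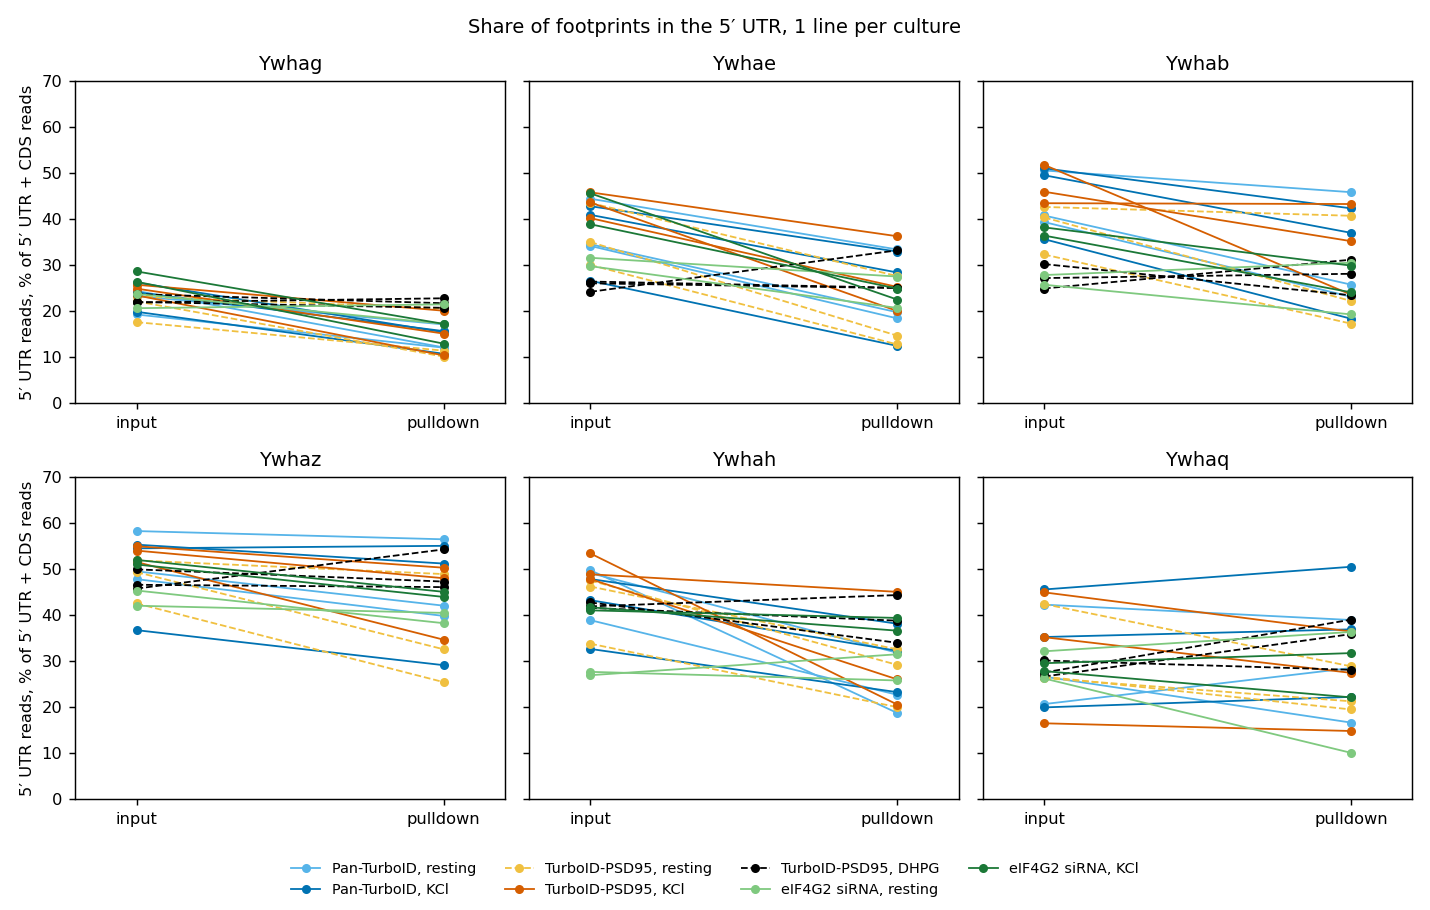
Share of reads in the 5′ UTR, as a percentage of 5′ UTR and CDS reads, in the input and pulldown of each culture for the 6 14-3-3 genes. Each line is a culture, dashed for the cultures of the picking contrast: lines fall in 13 of 13 other cultures for Ywhae and in 12 of 13 for Ywhab, Ywhag, Ywhah and Ywhaz, while Ywhaq shows no common direction.

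Few footprints lay in the 3′ UTRs. Their density was 0.00114 to 0.00475 of the CDS density over all libraries. Ywhag, with the longest 3′ UTR (2586 nt), had 0.540% to 1.06% of its CDS and 3′ UTR counts there in inputs by group mean, 2.10% to 3.49% in pulldowns outside DHPG and 8.44% in DHPG pulldowns (7.39% to 10.4% over 3 libraries). Single libraries of the pulldowns outside DHPG ran from 1.06% to 6.01%, both in depolarized cultures. The 3.49% is that of resting TurboID-PSD95 pulldowns. This value and the DHPG value are a description, since both groups are part of the picking contrast.

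Partners of the 14-3-3 proteins were counted in the same fits, from lists of 35 client genes and 26 kinase genes of which some phosphorylate docking sites. These lists were chosen with earlier results of these data known, so their counts against all genes are a description. In KCl responses, Irs2, an insulin receptor substrate, rose by 1.25 in Pan-TurboID and by 1.30 in TurboID-PSD95 inputs, and Sik1, a salt-inducible kinase, by 1.36 and 1.62, while Hdac5, a histone deacetylase that 14-3-3 keeps in the cytoplasm, fell by 1.47 and 1.30 and Prkce, a protein kinase C, by 0.85 and 0.74. In these inputs 6 and 5 of 35 clients passed (17.1% and 14.3%, against 4.05% and 4.28% of all genes), at medians of -0.20 and -0.28 against 0.00 and -0.02 for all genes. In TurboID-PSD95 pulldowns 1 client rose and 4 fell (14.3%, against 6.58% of all genes). Of the kinases, 4 and 3 of 26 passed in the inputs (15.4% and 11.5%). Without replicates 1, 2 and 3 in turn, 7.69%, 7.69% and 0% of kinases passed in Pan-TurboID inputs. In TurboID-PSD95 inputs these shares were 15.4%, 3.85% and 3.85%. The client counts depended on the replicates too. Without replicate 1, 5 and 6 clients passed in the inputs and 10 in the pulldowns (4.07%, 4.42% and 11.2% of all genes). Without replicate 2, which holds the pulldown that stood apart, 1 of 34 passed in each of the 3 comparisons (1.23%, 0.805% and 0.852%), and without replicate 3 none did (0.386%, 0.576% and 0.697%). The client medians stayed below 0 in these settings, at -0.13 to -0.25 and -0.14 to -0.30 in the inputs and -0.33 to -0.37 in the pulldowns. The neuronal markers that were lower after KCl in TurboID-PSD95 inputs and pulldowns apply here too, and their part was not tested. KCl responses also correlated with CDS length over genes. Spearman's rho was -0.37 in Pan-TurboID inputs, -0.42 in TurboID-PSD95 inputs and -0.43 in TurboID-PSD95 pulldowns. The part of CDS length in the partner values was not tested. No 14-3-3 gene passed in the Pan-TurboID comparisons.

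In resting siRNA cultures, pulldown over input was higher for 12 and lower for 11 of 34 clients tested (67.6% called, against 45.5% of all genes), and higher for 13 and lower for 2 of 26 kinases (57.7%). Mapt, which encodes tau, was lower at -1.47 at rest and -1.71 after KCl, below the value of every 14-3-3 gene in both states. Araf, a RAF kinase, was at -1.47 at rest. Sik2 and Sik3, salt-inducible kinases, were higher, at 1.43 and 1.40 at rest. The kinase median was 0.43 and the client median 0.21 at rest, against -0.01 for all genes and -1.21 for the 14-3-3 genes. After KCl the kinase median was 0.60 but the client median -0.29, against 0.00 for all genes and -1.26 for the 14-3-3 genes, with 12 clients higher and 11 lower again. The summed neuronal and oligodendrocyte markers given above for these cultures were lower in the same pulldowns, and their part in the partner values was not tested. Pulldown over input in these cultures also rose with CDS length over genes (Spearman's rho 0.57 at rest and 0.59 after KCl). The members' CDSs are short, and with the length trend removed their medians were -0.74 at rest and -0.67 after KCl. The part of length in the client and kinase medians was not tested. In Pan-TurboID cultures at rest, Rptor, the mTORC1 subunit raptor, was higher in the pulldown at 1.10 and Akt1s1, the mTORC1 inhibitor PRAS40, lower at -0.94, among 4 of 35 clients called (11.4%, close to the 9.54% of all genes).

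Genes whose levels ran most like Ywhae across the 38 libraries included Nap1l4 (Pearson's r 0.95), Thyn1 (0.94), Mapre1 (0.94) and Tardbp (0.94), on log2 CPM over 7809 genes. For the summed family they included Prkar1a (0.98), Cox5a (0.97), Thyn1 (0.96) and Ubb (0.96). Tardbp encodes an RNA-binding protein, Prkar1a a regulatory subunit of protein kinase A and Cox5a a subunit of cytochrome c oxidase. These correlations mix inputs with pulldowns and are descriptions. They and the correlations between members include the libraries of the contrast that picked the genes. Members correlated with each other at 0.88 to 0.97 over all libraries and at 0.78 to 0.93 over the 19 pulldowns, but at 0.01 to 0.84 over the 19 inputs, so the likeness was lowest where only inputs were compared.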

How the data were processed

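Counts were deposited by the authors as separate tables for the coding part and the untranslated parts of each transcript, by library: reads were trimmed, the 6 nt UMIs cut, aligned to mm10, stripped of rRNA reads and duplicates, and counted per transcript region with plastid at the 5′ end (offset 0, reads of 25 to 100 nt). Replicates were not pooled. The handling of multi-mapping reads and of strand is not given in the sources used here. For each gene the longest transcript was taken; 99.3% of 67238 coding transcripts matched the annotation, and segments were counted once. Levels are CPM over the library's CDS counts.

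Fold changes came from edgeR 4.0.16 in R 4.3.3 (TMM size factors, filterByExpr, robust quasi-likelihood F test, Benjamini-Hochberg adjustment over all genes tested, threshold 0.05) with group means as the design; the standard error is the fold change over the root of F. The KCl experiment (24 libraries), the siRNA libraries (8), the siRNA with the TurboID-PSD95 libraries (20) and the DHPG with the resting TurboID-PSD95 libraries (12) were fitted separately. The fits were tested on simulated data with 200 genes changed 2-fold: 34% were recovered for KCl in TurboID-PSD95 pulldowns, 82% for pulldown over input in resting siRNA cultures and 21.5% for siRNA against none in depolarized pulldowns. Alternatives were RLE size factors, CDS totals alone, no filter on low counts, the transcript with the highest count, removal of a CDS length trend, the likelihood ratio test, DESeq2 1.42.0, blocks for replicate number or culture and leaving out libraries. The second part of the CDS alone, the partner lists without each replicate, and the tests by position and 5′ UTR share were added after the data had been seen. The tests by position and 5′ UTR share used an exact sign-flip test over cultures in every gene with a mean count of at least 50 a culture (input plus pulldown), adjusted over all of them. Comparisons that use the resting TurboID-PSD95 libraries of the contrast that chose the genes had been planned as tests and are given for the members as values only.

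The culture pairing comes from the methods, which keep part of each monosome fraction as input. Deviations from group means of input and pulldown of 1 culture correlated at a median of 0.44 (-0.21 to 0.71), against -0.19 for other pairs. Same-numbered libraries of the KCl experiment, which the methods say were handled together, correlated at a median of 0.14 (-0.29 to 0.71). Replicates are separate cultures per the labels, but each pools dishes, and intervals cover only the spread between them. Depth ranged from 5906281 to 35643247 reads a library. The 6 genes and the partner lists were chosen with earlier results of these data known. The named genes were the 6 members, Eif4g2, Sfn, the 5 genes most like Ywhae and the 5 most like the family by Pearson correlation among genes with a mean log2 CPM of at least 4, and at most 2 partners a direction with the smallest p in each comparison. An item that this rule names is not reported here.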

Additional observations from a re-analysis of the deposited data

How the results depend on the processing

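Counts of members past the adjusted threshold for pulldown over input moved most. The share of all genes called moved with the setting too. It is given above for pulldown over input with the culture block and the length trend. Where no share is given, a count has no background beside it and is no result about the members. At rest with Pan-TurboID, 3 became 1 with no filter, with the highest-count transcript or with the second part of the CDS only, 0 with the length trend removed, 5 with DESeq2 or a replicate block, and 6 with the culture as block. After KCl with Pan-TurboID, 3 became 0 with the length trend removed, 5 with DESeq2 and 6 with the culture block. In both, leaving out a replicate gave 0 each time. After KCl with TurboID-PSD95, 1 became 0 with the length trend removed, 2 with RLE factors, CDS totals alone, the highest-count transcript or the likelihood ratio test, 3 with DESeq2, 4 with the second part only or a replicate block, 5 against the mean of both baits' inputs and 6 with the culture block, and ran from 0 to 3 without a replicate. The pairing by block changed no other call. No paired analysis was possible for siRNA against none because replicate numbers lie within what were taken as different experiments.

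For KCl in siRNA inputs, 1 became 0 with RLE factors or DESeq2 and 2 with the length trend removed, and was 0 without any library. In siRNA pulldowns, 1 became 0 with no filter, with the length trend removed or with the likelihood ratio test, and ran from 0 to 2 without a library. For siRNA against none in depolarized pulldowns, the second part only gave 2 in place of 5, and removing the length trend gave 4. Without any 1 library, Ywhag stayed between -1.24 and -0.78 there. A lone library left in a group was assumed to vary like the other groups. Pulldown over input in siRNA cultures kept 5 or 6 members under every alternative run.

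The DHPG contrast's median of -0.94 became -0.66 with the length trend removed. Pulldown over input after DHPG, -1.74, became -1.91 with CDS totals, -1.01 with the length trend removed and -2.06 in the second part, and at rest -0.77 became -0.33 and -1.001 under the last 2. The inputs' 0.28 became 0.18 with CDS totals, 0.36 with no filter and 0.077 in the second part. The pulldowns' -0.64 became -0.88 with CDS totals, -0.37 with the length trend removed and -0.88 in the second part. Among the untested medians that use the resting TurboID-PSD95 libraries, siRNA against none was -0.48 in resting pulldowns, or -0.71 in the second part, and -0.03 in resting inputs, or 0.058 with the length trend removed, -0.11 in the second part and -0.0714 to 0.0121 without a library. The KCl median of TurboID-PSD95 inputs, -0.01, became 0.032 with RLE factors, 0.024 with the highest-count transcript and 0.032 with DESeq2 and ran from -0.0137 to 0.0648 without a replicate, and that of the pulldowns, 0.22, ran from -0.0584 to 0.461. With the length trend removed, the input median was -0.14 and the pulldown median 0.0036. The cause of these moves was not tested. Position and 5′ UTR results kept 5 members in the KCl experiment alone, where 68.5% of 7811 and 67.7% of 10624 genes were called in the same direction. With 4 siRNA cultures the smallest exact p is 0.125, so no test was made there, and averaging cultures to 5 replicate sets leaves a smallest p of 0.0625, at which no member can pass. With the last against the first CDS segment 5 passed, and Ywhaq had too few counts to be tested. By that test 83.1% of 2611 genes were called above 0, so this count is no result about the members. Low counts limit the values of single segments and 3′ UTRs.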
